A study of Mus musculus with 8 samples.

Results

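The genes described here are 10 regulators and markers of satellite cells and of muscle differentiation, chosen as a fixed list of Ensembl row IDs: Pax7, Myf5, Myod1, Myog, Myf6, Mymk, Cdh15, Chrna1, Chrng and Ncam1. The list was drawn up to look for signs of regeneration or loss of nerve supply in muscle without annexin A2. Its rule uses no measured value, but the genes were proposed with earlier results of these data known. Of the 10, 9 had a row among the 17352 genes of the value table, and Cdh15, which encodes M-cadherin of satellite cells, was not analysed here. Gastrocnemius, a calf muscle, was taken from the left hindlimb of 4 Anxa2 knockout mice and 4 wild type mice. All were on a C57BL/6 background and 24 weeks old. The labels call the 4 samples of each genotype biological replicates and name no injury or treatment. They do not describe the knockout allele or give the animals' sex. Whole-muscle RNA was read on 8 arrays, and values are log2 expression after RMA, a method that corrects background, equalizes arrays and combines the probes of a gene.

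Satellite cells are the stem cells of skeletal muscle and lie between a fibre and its basal lamina. In resting muscle they express the transcription factor Pax7, and many also express Myf5. After injury they switch on Myod1, multiply, express Myog, and fuse into fibres with the help of the membrane protein encoded by Mymk. Fibres that lose their nerve also raise Myog, the acetylcholine receptor genes Chrna1 and Chrng, and the adhesion molecule Ncam1, because electrical activity normally holds these genes down outside the synapse.

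None of the 9 measured genes passed the test between knockout and wild type muscle. At an adjusted p of 0.05 in limma, 0 of the 9 were higher and 0 were lower, against 0.0% of all rows called. At an unadjusted p under 0.05 the count was also 0 of 9, against 1.55% of all rows. That share lies below the proportion of 0.05 expected if no row differed, and the reason was not tested. In 0 of the 9 did the arrays of the genotypes separate without overlap, against 1.31% of all rows. The knockout mean was above the wild type mean in 3 genes and below it in 6, against 8168 and 9184 of all rows. The median difference of the 9 was -0.076 (log2), against -0.0085 over all rows, and the median size of a difference was 0.085, against 0.080 over all rows.

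The 95% intervals set limits on what could have been missed. In all 9 genes the interval excluded a level 1.5-fold higher in the knockout, and in 7 of the 9 it also excluded a level 1.5-fold lower. The exceptions were Myod1 and Myog, whose intervals reached 1.61-fold and 1.76-fold lower. All 9 intervals lay within 2-fold in both directions. Of all 17352 rows, 15980 had an interval that excluded a 1.5-fold higher level, and 16316 one that excluded a 1.5-fold lower level. In 17077 rows the interval lay within 2-fold in both directions, so most rows of the series had such bounds. These intervals are not adjusted for the number of genes, and RMA compresses differences near the background, so they bound the RMA value and not the amount of transcript.

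**Figure D1:**
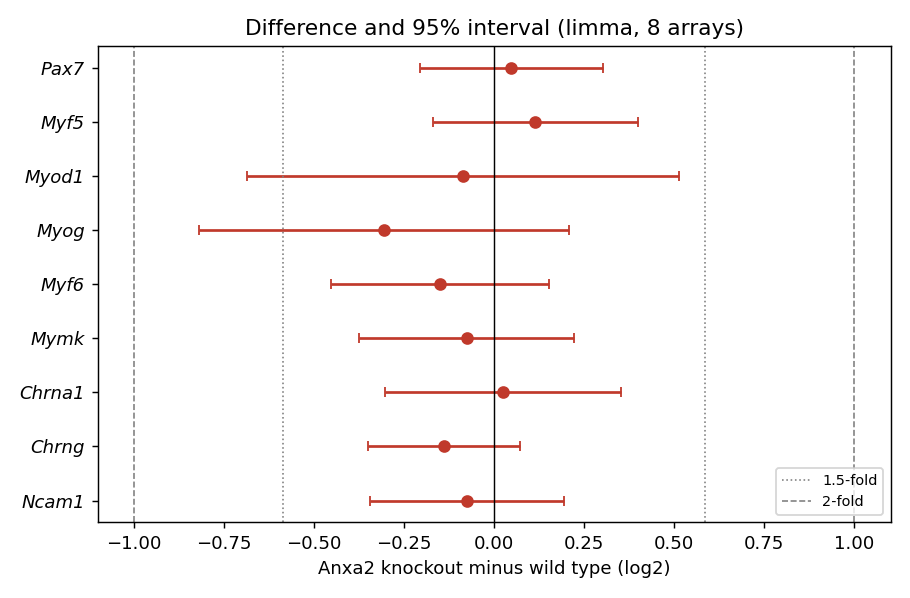
Difference between Anxa2 knockout and wild type (log2, horizontal axis) for each of the 9 genes, with 95% intervals from limma over 8 arrays; the dotted and dashed lines mark 1.5-fold and 2-fold. Every interval includes 0, and those of Myod1 and Myog are the widest.

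Several of these genes sat low on the arrays. The mean levels of Chrng, Pax7, Mymk, Ncam1 and Myf5 ranked between the 28.8th percentile of all rows, for Chrng, and the 40.5th, for Myf5. No detection call accompanies the values, so it is not known whether these 5 stood above background. Myod1 and Myog lay at the 65.3rd and 67.7th percentiles, Chrna1 at the 81.8th and Myf6 at the 97.9th. Probes differ in how strongly they bind, so these ranks describe a row's distance from the bottom of the range and are not a ranking of transcript amounts.

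Pax7 (ENSMUSG00000028736_at), the defining factor of the satellite cell, read 3.80, 4.04, 4.06 and 3.68 in the knockout arrays, against 3.76, 3.91, 3.96 and 3.76 in the wild type arrays (log2). The knockout arrays held both the lowest and the highest value, and the groups overlapped. The means were 3.90 ± 0.19 in the knockout and 3.85 ± 0.10 in wild type (SD, n = 4 each), and the difference of 0.047 (SE 0.11) had a limma adjusted p of 1.00. The interval ran from -0.21 to 0.30, or from 1.15-fold lower to 1.23-fold higher. In whole muscle, fewer cells of a type and less RNA per cell cannot be told apart, and this holds for each gene below.

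Myf5 (ENSMUSG00000000435_at), the myogenic factor found in resting and newly activated satellite cells, read 4.35, 4.31, 4.52 and 4.84 in the knockout, against 4.34, 4.29, 4.50 and 4.43 in wild type. Knockout replicate 4 was the highest of the 8 arrays, while the other knockout arrays spanned much the same range as wild type. The difference was 0.11 (SE 0.13, limma adjusted p 1.00), and leaving out knockout replicate 4 brought it to 0.0012.

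Myod1 (ENSMUSG00000009471_at) drives committed myoblasts towards differentiation. It read 6.40, 5.97, 6.12 and 5.33 in the knockout arrays and 6.07, 6.29, 6.46 and 5.34 in the wild type arrays. Each genotype thus had 1 array, replicate 4 in both, well below its other 3, and the remaining arrays overlapped. Its SD was 0.45 in the knockout and 0.49 in wild type, and its residual spread ranked at the 97.0th percentile of all rows. The difference of -0.085 (SE 0.27, limma adjusted p 1.00) was smaller than either SD. Its sign rested on single arrays: leaving out knockout replicate 4 gave 0.12, leaving out wild type replicate 3 gave 0.055, and leaving out wild type replicate 4 gave -0.32.

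Myog (ENSMUSG00000026459_at), or myogenin, acts at the onset of differentiation and also links inactivity of the fibre to receptor genes. It showed the largest difference of the 9 genes. Knockout arrays read 5.75, 5.85, 6.23 and 6.20, against 6.58, 6.81, 6.21 and 5.65 in wild type. All 4 knockout values fell inside the wild type range, because wild type replicate 4 was the lowest of the 8 arrays and wild type replicates 1 and 2 were the highest. The means were 6.01 ± 0.24 in the knockout and 6.31 ± 0.51 in wild type (SD, n = 4 each). The difference was -0.31 (SE 0.23, 95% interval -0.82 to 0.21), corresponding to a knockout level 1.24-fold lower, with a limma adjusted p of 1.00. Its size depended on single arrays in both directions. Leaving out wild type replicate 2 gave -0.14, with a limma p of 0.54 before adjustment, and leaving out wild type replicate 1 or knockout replicate 1 gave -0.22 each. Leaving out wild type replicate 4 gave -0.53, with a limma p of 0.012 before adjustment and an adjusted p of 1.00. Even then the groups overlapped, since knockout replicate 3 at 6.23 lay above wild type replicate 3 at 6.21. Over all 8 arrays the interval excluded a level more than 1.15-fold higher. Whether any fibres were denervated or regenerating was not tested.

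Myf6 (ENSMUSG00000035923_at), also called MRF4, is the main myogenic factor of mature adult fibres. It read 10.6, 10.4, 10.1 and 10.5 in the knockout and 10.5, 10.8, 10.6 and 10.3 in wild type. Knockout replicate 3 was the lowest array and wild type replicate 2 the highest, with the other 6 between them and intermixed. The difference was -0.15 (SE 0.14, limma adjusted p 1.00), and leaving out knockout replicate 3 brought it to -0.045.

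Mymk (ENSMUSG00000009214_at) encodes myomaker, a membrane protein that myoblasts need in order to fuse. It read 3.74, 4.18, 4.08 and 3.76 in the knockout, against 3.91, 3.98, 3.91 and 4.26 in wild type. The highest value belonged to wild type replicate 4 and the lowest to knockout replicate 1, and the groups overlapped. The difference was -0.076 (SE 0.13, limma adjusted p 1.00), and the interval excluded more than a 1.17-fold higher level.

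**Figure D2:**
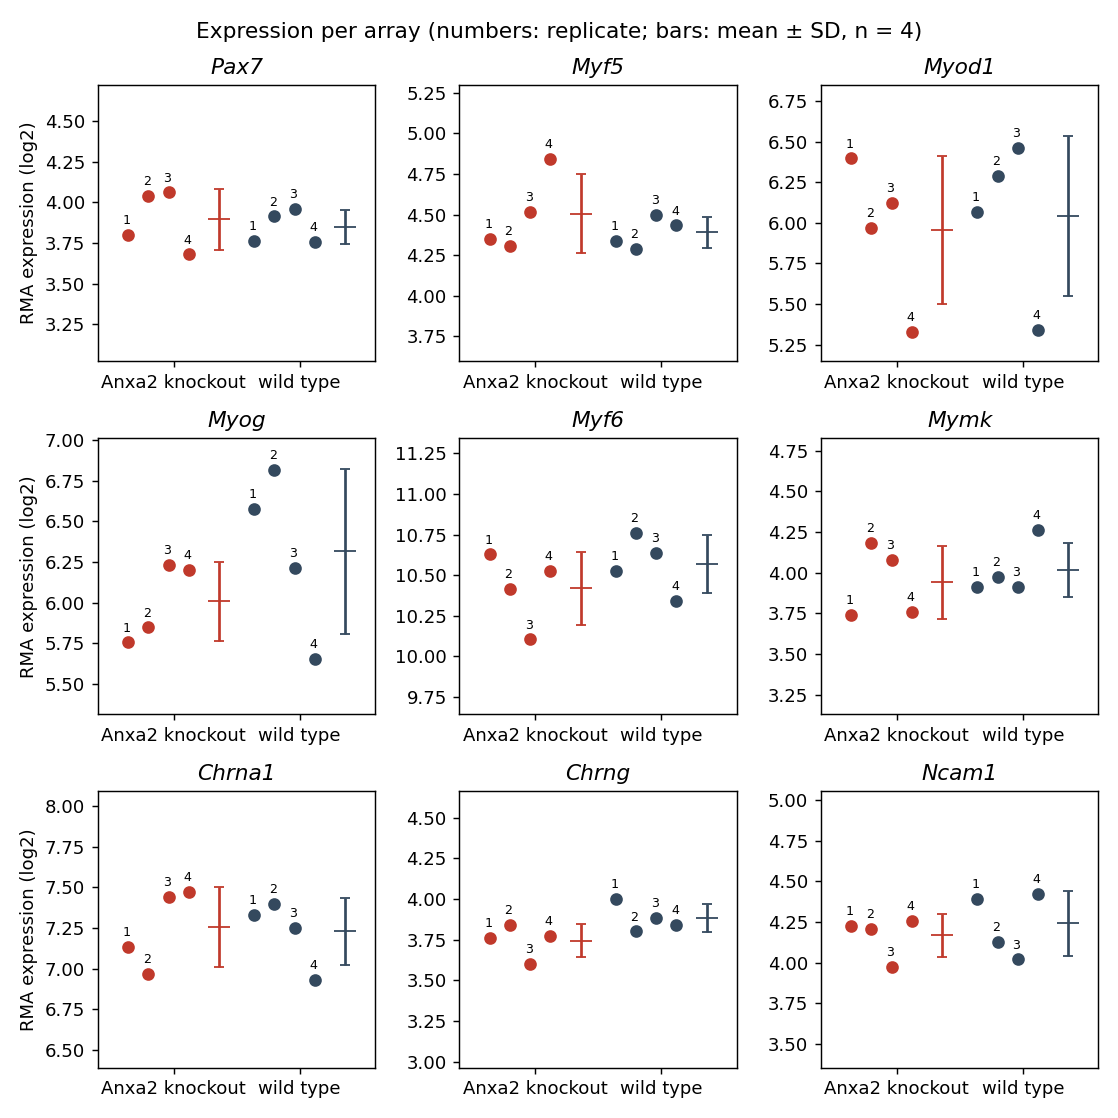
RMA expression (log2, vertical axis, the same span in each panel) of the 9 genes in each array, Anxa2 knockout left and wild type right; numbers give the replicate and bars the mean ± SD (n = 4). The genotypes overlap in every panel, and Myod1 and Myog spread the most, over 1.13 and 1.16 log2 units.

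Chrna1 (ENSMUSG00000027107_at) encodes the alpha subunit of the muscle acetylcholine receptor, which every receptor of fetal and adult type contains. It read 7.13, 6.97, 7.44 and 7.47 in the knockout and 7.33, 7.40, 7.25 and 6.93 in wild type. The 2 highest arrays were knockout replicates 3 and 4, and the lowest was wild type replicate 4, close to knockout replicate 2. The difference was 0.025 (SE 0.15, 95% interval -0.30 to 0.35, limma adjusted p 1.00), which excluded more than a 1.28-fold higher level.

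Chrng (ENSMUSG00000026253_at) encodes the gamma subunit of the fetal receptor. It is replaced by another subunit in innervated adult muscle and returns after denervation. It read 3.76, 3.84, 3.60 and 3.77 in the knockout, against 4.00, 3.80, 3.89 and 3.84 in wild type. Only knockout replicate 2 lay within the wild type range, and the other 3 lay below it, replicate 3 the farthest. The means were 3.74 ± 0.10 in the knockout and 3.88 ± 0.09 in wild type (SD, n = 4 each). The difference of -0.14 (SE 0.095) gave the smallest p of the 9 genes, 0.17 in limma before adjustment and 1.00 after. Leaving out knockout replicate 3 brought the difference to -0.091. Its interval, -0.35 to 0.072, excluded more than a 1.05-fold higher level, the tightest upper bound of the 9. That bound applies to a row whose distance from background is unknown.

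Ncam1 (ENSMUSG00000039542_at) encodes the neural cell adhesion molecule, carried by satellite cells, by Schwann cells of the nerve and by the surface of denervated fibres. It read 4.23, 4.21, 3.97 and 4.26 in the knockout and 4.39, 4.13, 4.02 and 4.42 in wild type. Wild type replicates 1 and 4 were the highest and knockout replicate 3 the lowest, and 3 of the 4 knockout values lay inside the wild type range. The difference was -0.074 (SE 0.12, limma adjusted p 1.00). It ranged from -0.15 to -0.010 as single arrays were left out, and was nearest to 0 without knockout replicate 3 and, at -0.014, without wild type replicate 4.

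The genes Chrna1, Chrng and Myog carry the short sequence that the 4 myogenic factors measured here are known to bind, the E-box CANNTG. Their promoter windows are shown because these genes link the factors to receptor expression. Each window runs from 250 bases before to 50 bases after the RefSeq start, read 5′ to 3′ on the gene's strand (RefSeq, GRCm38.p6), and capitals mark every CANNTG. Chrna1 lies at chr2:73580289-73580588 on the minus strand, Chrng at chr1:87205561-87205860 on the plus strand and Myog at chr1:134289754-134290053 on the plus strand.
Chrna1: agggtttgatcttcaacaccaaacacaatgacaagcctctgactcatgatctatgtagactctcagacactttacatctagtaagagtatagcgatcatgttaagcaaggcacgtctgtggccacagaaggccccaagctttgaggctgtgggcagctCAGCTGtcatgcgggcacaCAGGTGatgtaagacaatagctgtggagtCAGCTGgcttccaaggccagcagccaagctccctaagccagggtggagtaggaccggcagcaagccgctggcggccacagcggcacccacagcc
Chrng: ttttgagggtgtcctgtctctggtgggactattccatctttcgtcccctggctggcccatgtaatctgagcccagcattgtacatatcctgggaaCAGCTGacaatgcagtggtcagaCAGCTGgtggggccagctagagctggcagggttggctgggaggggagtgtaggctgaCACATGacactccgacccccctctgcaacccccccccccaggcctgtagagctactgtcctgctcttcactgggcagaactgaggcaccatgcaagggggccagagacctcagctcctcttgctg
Myog: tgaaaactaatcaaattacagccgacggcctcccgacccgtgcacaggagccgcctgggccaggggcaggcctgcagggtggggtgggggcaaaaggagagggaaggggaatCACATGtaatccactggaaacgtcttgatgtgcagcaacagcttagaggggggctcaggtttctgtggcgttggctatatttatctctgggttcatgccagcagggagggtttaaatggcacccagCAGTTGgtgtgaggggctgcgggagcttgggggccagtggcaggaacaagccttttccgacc

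Chrna1 and Chrng each held 3 E-boxes, and Myog held 2. In each receptor gene 2 of the 3 were of the form CAGCTG, which began 92 and 44 bases before the start in Chrna1 and 155 and 132 bases before it in Chrng. In Myog the E-boxes began 138 and 12 bases before the start, and neither was of that form. Carrying an E-box was common: among 32851 promoter windows of the same length, 72.3% held at least 1. At least 2 were held by 39.6% and at least 3 by 17.6%, and 1.90% held at least 2 of the CAGCTG form. The pattern CANNTG reads the same on both strands, though a single site such as CAGGTG need not. E-boxes of the CAGCTG form are counted among all E-boxes. The windows of Pax7 and Myf5 held 0 E-boxes and that of Cdh15 held 4. The motif and the genes shown were chosen from general knowledge of these promoters, and a match is a description of the letters, not a measured binding site. The mean differences of Chrna1 and Chrng were 0.025 and -0.14, neither past the test, and the sign for Chrna1 reversed in 5 of 16 alternatives. Whether the motif bears on either difference was not tested.

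No pair of the 9 genes varied together past the test. Over the 36 pairs, 16 had a positive Pearson correlation across the 8 arrays, and 0 pairs passed an adjusted p of 0.05. The pair with the smallest Pearson p was Myog with Chrna1, at r = 0.76 (exact permutation p = 0.030, Benjamini-Hochberg adjusted p = 0.64 over the 36 pairs). Its Spearman rho was 0.67 (exact permutation p = 0.083, adjusted p = 0.91). Leaving out the 2 arrays farthest from the median of Myog gave r = 0.68, and leaving out wild type replicate 4 gave 0.66. Pax7 and Ncam1, the only other pair with an unadjusted Pearson p under 0.05, ran in opposite directions at r = -0.76 (exact permutation p = 0.035, adjusted p = 0.64). Their rho was -0.86 (exact permutation p = 0.011, adjusted p = 0.39), the smallest p by Spearman of the 36 pairs. Without the 2 arrays farthest from the median of Pax7, r was -0.79.

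Wild type replicate 4 stood apart from the other arrays across all genes. Across rows it correlated with the remaining 7 arrays at 0.978 on average, while each remaining array averaged between 0.988 and 0.991. Its median deviation over all rows was 0.22 log2 units, against 0.086 to 0.12. Among the 9 genes it was the lowest wild type array in 5 (Pax7, Myod1, Myog, Myf6 and Chrna1) and the highest in 2 (Mymk and Ncam1). Its median deviation over the 9 was 0.22, against 0.19 in knockout replicates 3 and 4 and 0.073 to 0.16 in the other 5. Thus its deviation in these genes was no larger than its deviation elsewhere. In 18 checks, 1 for each gene and genotype, 0 arrays lay far from the other 3 by Dixon's criterion.

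**Figure D3:**
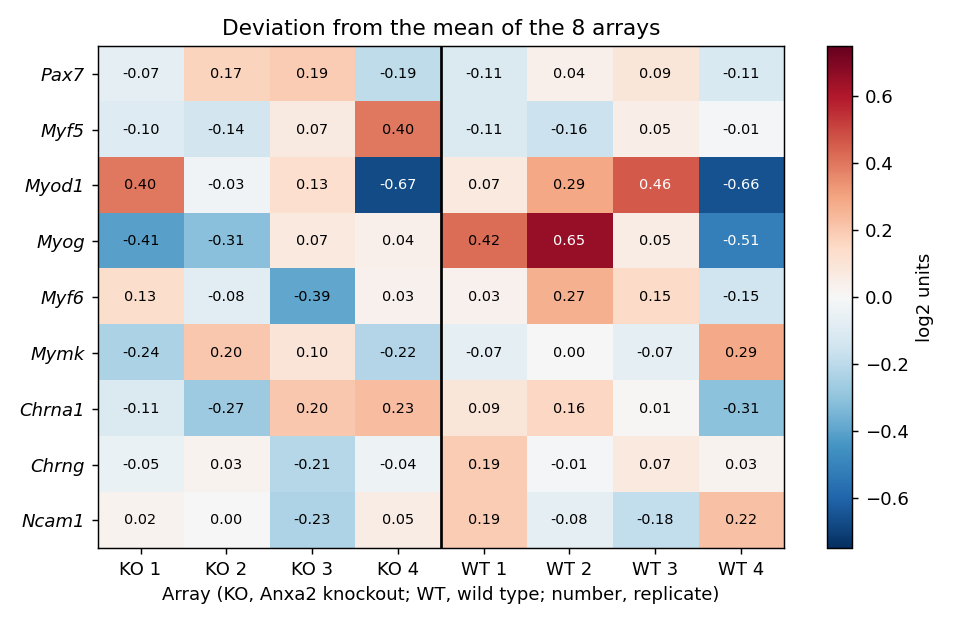
Deviation of each array from the mean of the 8 arrays (log2 units, colour and printed value), with the 9 genes as rows and the arrays as columns, Anxa2 knockout (KO) left and wild type (WT) right. The deviations farthest from 0 are those of Myod1 in replicate 4 of each genotype, at -0.67 and -0.66, and of Myog in wild type replicate 2, at 0.65.

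Earlier results of these data had shown that the arrays divide by the row ENSMUSG00000086503_at in a way that crosses genotype. The row was high in knockout replicates 3 and 4 (8.98 and 9.64, log2) and wild type replicates 1 and 2 (9.26 and 9.13). It was low in the remaining 4, from 3.56 to 4.07. The sources used here do not name the gene of this row. The labels do not give sex, and whether the division reflects sex or something else was not tested. On the high side the knockout minus wild type difference of Myod1 was -0.45 and on the low side 0.28. Myf5 gave 0.37 and -0.14, Myog -0.48 and -0.13, and Myf6 -0.33 and 0.030, in the same order. Each value compares 2 arrays with 2, and the differences between the sides were not tested. Pax7, Mymk, Chrng and Ncam1 kept the sign of their pooled difference on both sides, and Chrna1 gave 0.092 and -0.043. Myog and Chrna1, the pair with the smallest Pearson p, both had higher means on the high side in each genotype. Chrna1 averaged 7.46 (knockout) and 7.37 (wild type) there, against 7.05 and 7.09 on the low side. Myog averaged 6.22 and 6.70, against 5.80 and 5.93. Every Chrna1 value on the high side (7.33 to 7.47) lay above every value on the low side (6.93 to 7.25). Myog ran from 6.20 to 6.81 on the high side and from 5.65 to 6.21 on the low side, with slight overlap. The permutation took no account of the side. Whether the correlation of Myog with Chrna1 follows the side was not tested. With the side as a block in the fit, 0 of the 9 genes had an unadjusted p under 0.05, and that of Myog was 0.058, against 0.21 without the block (limma).

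**Figure D4:**
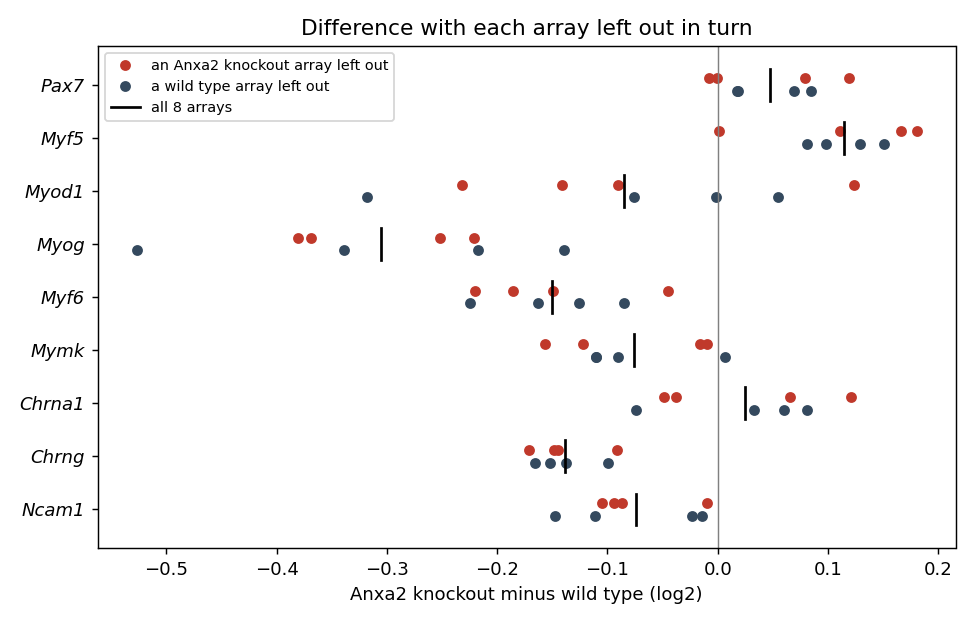
Difference between Anxa2 knockout and wild type (log2, horizontal axis) when 1 array is left out at a time, red for a knockout array and dark for a wild type array; the black bar is the value over all 8 arrays. Myog stays below 0 throughout, from -0.53 to -0.14, while Pax7, Myod1, Mymk and Chrna1 cross it.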

How the data were processed

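Gastrocnemius RNA of 4 Anxa2 knockout and 4 wild type mice was measured on 1 array each. The values were deposited by the authors as log2 expression, made with RMA and R 3.1.2 per the submitters' processing notes. No source used here gives the probe-set definition or genome build. The number of arrays limits the precision.

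Knockout was compared with wild type with limma 3.58.1 in R 4.3.3. Genotype was the only term, all 17352 rows were fitted without a filter, moderation was by empirical Bayes, and two-sided p-values were adjusted by Benjamini-Hochberg over the whole table, with a threshold of 0.05. The fit was tested on simulated data, in which 200 rows were changed by a set fold. At the adjusted threshold it recovered 22.0% of 1.5-fold changes and 85.5% of 2-fold changes. Most changes of 1.5-fold would thus be missed at that threshold. The simulated noise was independent between arrays and held no deviant array, and changing 200 rows at once eases the adjusted threshold. These shares therefore do not describe recovery of a lone change, or of rows that spread as widely as Myod1 and Myog. Correlations used exact permutation. Figures were drawn with matplotlib 3.10.9.

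The members and lists were chosen with earlier results of these data known. All 10 members were to be named. Their symbols come with the list of IDs. The RefSeq name table pairs 0 of its 49997 genes with an Ensembl ID, so the genotype labels were not checked against Anxa2 itself, fibre markers were not checked, and the 11 lists of pathway and cell type genes were not analysed here. Since no row passed the adjusted threshold in the fit over all rows and arrays, Anxa2, if it has a row, did not pass it either. Promoter sequences were matched by symbol for 6 of the 10 members. Alternatives were other moderation, array weights, scaling, a level filter, blocks and leaving out arrays.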

Additional observations from a re-analysis of the deposited data

How the results depend on the processing

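Under 16 alternatives, 0 of the genes measured passed the adjusted threshold in any, and the smallest adjusted p of any of them was 0.94. The level filter tested only 4 of the 9. Over all rows, 0 were higher in every alternative, and 1 was lower with array weights, median centring, renewed quantile normalization and the replicate block, against 0 in the fit over all rows and arrays. The replicate block used the numbers in the labels. It left each difference unchanged and gave Myog an unadjusted limma p of 0.26, while the array split as a block gave 0.058. Deviations of same-numbered arrays correlated at -0.072, -0.25, 0.18 and -0.24, so the numbers were not taken to pair the samples. Myf5, Myog, Myf6, Chrng and Ncam1 kept their direction in all alternatives that tested them. As single arrays were left out, Myf5 ranged from 0.0012 to 0.18, Myog from -0.53 to -0.14, Myf6 from -0.22 to -0.045, Chrng from -0.17 to -0.091 and Ncam1 from -0.15 to -0.010. Pax7 ranged from -0.0078 to 0.12 as single arrays were left out, Myod1 from -0.32 to 0.12, Mymk from -0.16 to 0.0063 and Chrna1 from -0.074 to 0.12. Pax7 was -0.0032 with array weights and -0.031 without both wild type replicate 4 and knockout replicate 2. Chrna1 was -0.050 with array weights and -0.0083 with renewed quantile normalization. Myog was the only gene with an unadjusted p under 0.05 in any alternative: its difference was -0.53 with array weights (limma p 0.012, adjusted p 1.00), -0.53 without wild type replicate 4, and -0.47 without that array and knockout replicate 2. The cause of these shifts was not tested. The median over all rows moved between -0.024 and 0.017.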
